A study of Mus musculus with 10 samples.

Results

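A set of 10 genes of the LIF receptor and JAK-STAT pathway was examined for peaks of the transcription factors SOX2 and SOX15 in mouse embryonic stem cells. The genes were Lifr, Il6st, Jak1, Jak2, Stat3, Socs3, Socs2, Pim1, Pim3 and Lif, chosen by name for their place in the pathway, and they are 10 of the 21631 protein-coding genes of the RefSeq table used. A peak was given to a gene when its summit, the position of highest signal, lay within 50 kb of the gene body. The series mapped HA-tagged SOX2 and HA-tagged SOX15 by ChIP-seq, in which crosslinked chromatin is precipitated with its DNA and sequenced, in stem cells that carried the tag as a knock-in. All cells were grown in 2i/LIF medium, so LIF was supplied in every group, and were fixed with 1% formaldehyde for 5 min. Peak lists of 2 SOX2 and 3 SOX15 libraries were analysed, next to which the series has 2 SOX2 and 3 SOX15 input libraries that were not used. No label tells if replicates came from different cultures or clones, so the spread between them may be technical. The lists hold peaks and no transcript levels, so marker genes of stem cells could not be checked and no statement on expression is made.

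LIF (leukemia inhibitory factor) is a secreted cytokine that supports self-renewal of mouse embryonic stem cells. It binds the receptor LIFR, which pairs with the shared signal-transducing chain gp130, the product of Il6st. The receptor-bound kinases JAK1 and JAK2 then phosphorylate the transcription factor STAT3, which enters the nucleus and activates target genes. Socs3 and Socs2 encode inhibitors that are induced by cytokine signalling and dampen it, and Pim1 and Pim3 encode serine/threonine kinases whose genes respond to STAT3. SOX2 is an HMG-box factor of the core pluripotency network, and SOX15 belongs to the same family.

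The strongest SOX2 peak of each receptor gene, Lifr and Il6st, had a higher fold in both libraries than the strongest peak of any other of the 10 genes. Of the 10 genes, 6 (Lifr, Il6st, Jak2, Socs3, Socs2 and Pim1) had a peak at the same place in both SOX2 libraries, while 14.1% of all protein-coding genes did. A peak in at least 1 SOX2 library was near 8 of the 10, which adds Lif and Pim3, against 26.0% of all genes. Taken singly, SOX2 replicate 1 had a peak near 6 of the 10 (15.5% of all genes) and replicate 2 near 8 (24.9%). When each peak was given to its nearest gene alone, 5 of the 10 kept a SOX2 peak in both libraries (7.30% of all genes), and 3 had such a peak inside the gene body (4.18%). Jak1 and Stat3 had no peak in any of the 5 libraries. SOX15 had no peak shared by 2 libraries near any of the 10 genes, with 2.26% of all genes called by that rule. A peak in at least 1 SOX15 library was near Il6st alone, 1 of 10 against 8.11% of all genes, a share near the background. SOX15 replicates 1, 2 and 3 had a peak near 0, 0 and 1 of the 10 genes, and near 2.29%, 5.78% and 4.26% of all genes. The genes were chosen with earlier results of these data known, so these counts are a description and carry no test. Long genes have wider windows. The bodies of the 10 genes ran from 3.53 to 113 kb with a median of 38.1 kb, against 17.3 kb for all genes. Of the 15913 genes with bodies in that range, 13.8% had a SOX2 peak in both libraries. That range holds most of the 21631 genes and was not matched to the median of the 10. Gene length was thus not controlled for.

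**Figure D1:**
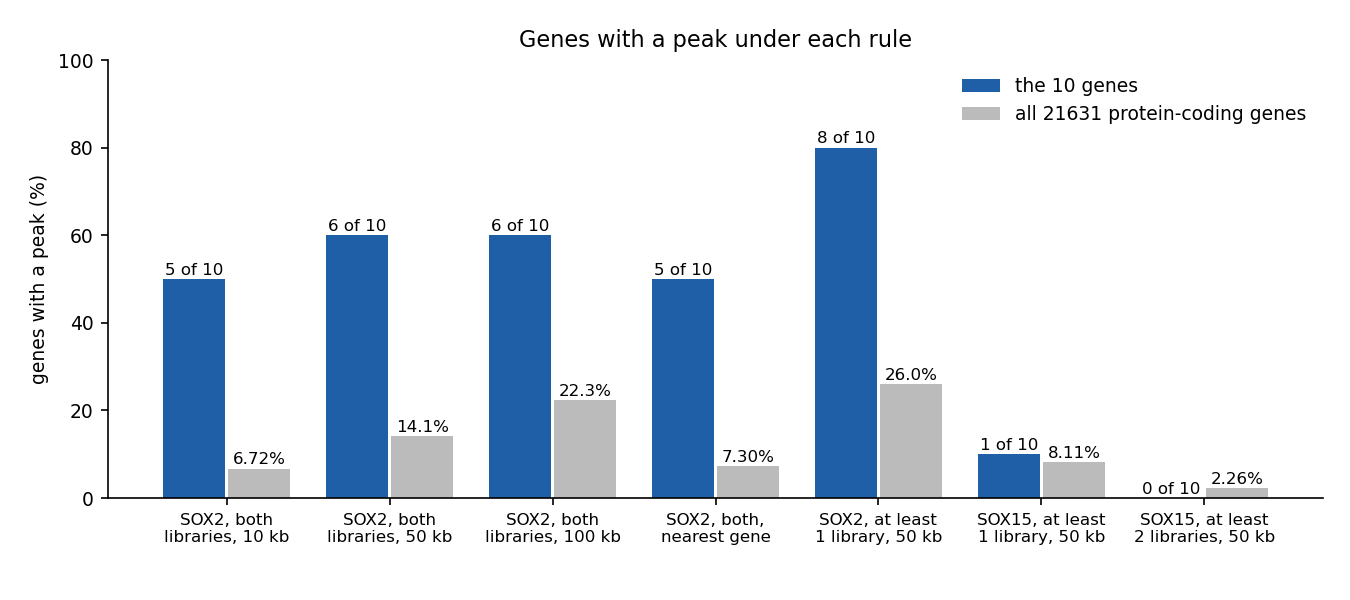
Percent of the 10 genes (blue, with their number) and of all 21631 protein-coding genes (grey) that had a peak under each rule of distance and number of libraries. SOX2 in both libraries reached 5 or 6 of the 10 genes under the 4 rules of distance, where the background ran from 6.72% to 22.3%, and SOX15 reached 1 or 0.

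The 10 windows held 10 and 13 peaks of the SOX2 libraries (replicates 1 and 2), out of lists of 2676 and 4817. They held 0, 0 and 1 peak of SOX15 replicates 1, 2 and 3, out of 217, 672 and 437. As a share of the list this was 0.374% and 0.270% for SOX2, and 0%, 0% and 0.229% for SOX15. Each SOX2 share was thus above each SOX15 share, although the smaller SOX2 value lies close to that of SOX15 replicate 3. The SOX15 lists are short, and 1 peak in SOX15 replicate 1 would have put its share above both SOX2 shares. The means were 0.322% ± 0.0734 (SD, n = 2) and 0.0763% ± 0.132 (SD, n = 3). Their difference of 0.246 points did not pass a two-sided exact permutation test over the 5 libraries (p = 0.2), whose smallest possible p is 0.1. The windows are those of genes chosen with earlier results of these data known, so this p does not test the list of genes. The depth of the libraries is unknown, so a gene without a peak may lie under the threshold of the peak caller.

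Near the 10 genes, every SOX2 peak of replicate 1 had a counterpart in replicate 2. The 10 peaks of replicate 1 paired with 10 of the 13 peaks of replicate 2, and the remaining 3 were in replicate 2 alone. Over the genome 2369 SOX2 regions were in both libraries, 299 in replicate 1 alone and 2447 in replicate 2 alone. Within the 10 pairs the summits lay 5 to 102 bp apart with a median of 12 bp, against a median of 22 bp over the 2360 regions with 1 peak in each library. Folds below are the authors' enrichment over background, a linear ratio that is comparable only within a list. Each is therefore given with its percentile, the percent of peaks in the same list with an equal or lower fold.

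Il6st, the gene of gp130 (chromosome 13, 112464070 to 112506860, forward strand, mm10), had 1 SOX2 region, and it was among the strongest of either list. The fold was 32.1 in replicate 1 and 38 in replicate 2, which ranked 33rd and 28th and corresponds to percentiles of 98.8 and 99.4. Deposited −log10 q-values were 110 and 144. The region (chromosome 13, 112462297 to 112462959) spanned 663 bp upstream of the gene, with summits 1.48 and 1.49 kb before its first base. Of the SOX2 regions outside gene bodies near the 10 genes it was the closest to its gene. The nearest gene of any kind in the table was Il6st itself.

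The single SOX15 peak near the 10 genes lay on this region. It was called in SOX15 replicate 3 (chromosome 13, 112462505 to 112462793), and its summit, at 112462585, fell between the SOX2 summits at 112462579 and 112462586. Its fold was 5.96 and its −log10 q-value 5.44, a percentile of 41.2 in that list. SOX15 replicates 1 and 2 had no peak there, and the nearest summits of those lists on the chromosome were 88698 and 191 kb away. SOX15 replicate 3 often had peaks at strong SOX2 regions. It covered 66 of the 145 SOX2 regions with a mean percentile of at least 95 (45.5%), against 6 each for replicates 1 and 2 (4.14%), and 185 of all 2369 (7.81%). The call at Il6st is thus of a kind common in that library and rests on it alone. The limit of 95 was chosen after the values were seen.

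The 250 bases before the start of Il6st are shown because this is the promoter closest to a strong SOX2 region. They are on the forward strand of GRCm38.p6, whose coordinates are those of mm10, at chr13:112463820-112464069, from RefSeq. They lie between the SOX2 region and the gene and hold no match to the searched SOX, OCT, STAT or KLF motifs, so nothing is in capitals.

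Il6st promoter: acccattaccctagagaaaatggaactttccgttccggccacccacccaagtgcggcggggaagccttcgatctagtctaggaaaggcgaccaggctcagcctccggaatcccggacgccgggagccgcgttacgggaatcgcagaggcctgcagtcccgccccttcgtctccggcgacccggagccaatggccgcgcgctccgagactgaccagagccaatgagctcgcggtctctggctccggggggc

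Lifr, the gene of the ligand-binding receptor (chromosome 15, 7090610 to 7197489, forward strand), had 3 SOX2 regions in both libraries, more than any other of the 10. Of all protein-coding genes 0.707% had at least 3, and 2.81% had at least 2, which 3 of the 10 genes reached (Lifr, Jak2 and Socs2). The upstream region (chromosome 15, 7081796 to 7082357) had a fold of 32.4 in replicate 1 and 29.9 in replicate 2, at percentiles of 98.9 and 98. Its summits lay 8.55 and 8.54 kb before the first base of the gene body and 14 bp apart. A lncRNA gene, Gm30971, lay closer to it, at 6.43 and 6.44 kb from the summits.

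The other regions of Lifr form a close pair inside the gene body. At the first (chromosome 15, 7115614 to 7116099) the fold was 17.5 in replicate 1 and 9.98 in replicate 2. The second (chromosome 15, 7116591 to 7117154) had 18.0 and 9.77. Both stood high in replicate 1, at percentiles of 90.1 and 91.1, and nearer the middle of replicate 2, at 65.2 and 63.3. The summits of the pair were 1098 bp apart in replicate 1 and 986 bp apart in replicate 2, and about 33.8 kb from the upstream summit in each. The table gives starts of Lifr at 7129572 and 7140542, beyond this pair, so the pair lies inside the longest gene model and 12.6 to 13.7 kb before the nearer of those starts. Exons are not given in the table, so exon and intron could not be told apart. No SOX15 peak was within 1910 kb of Lifr.

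Lif, the ligand gene (chromosome 11, 4257568 to 4272514, forward strand), had 1 SOX2 peak, in replicate 2 alone. Its fold was 9.96, a percentile of 65.2, with a −log10 q-value of 19.2, well above the lowest value of that list, 2.20. Its summit lay 11.1 kb before the start of Lif and closer, at 5.42 kb, to Osm, which encodes the related cytokine oncostatin M. No peak of replicate 1 matched it.

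**Figure D2:**
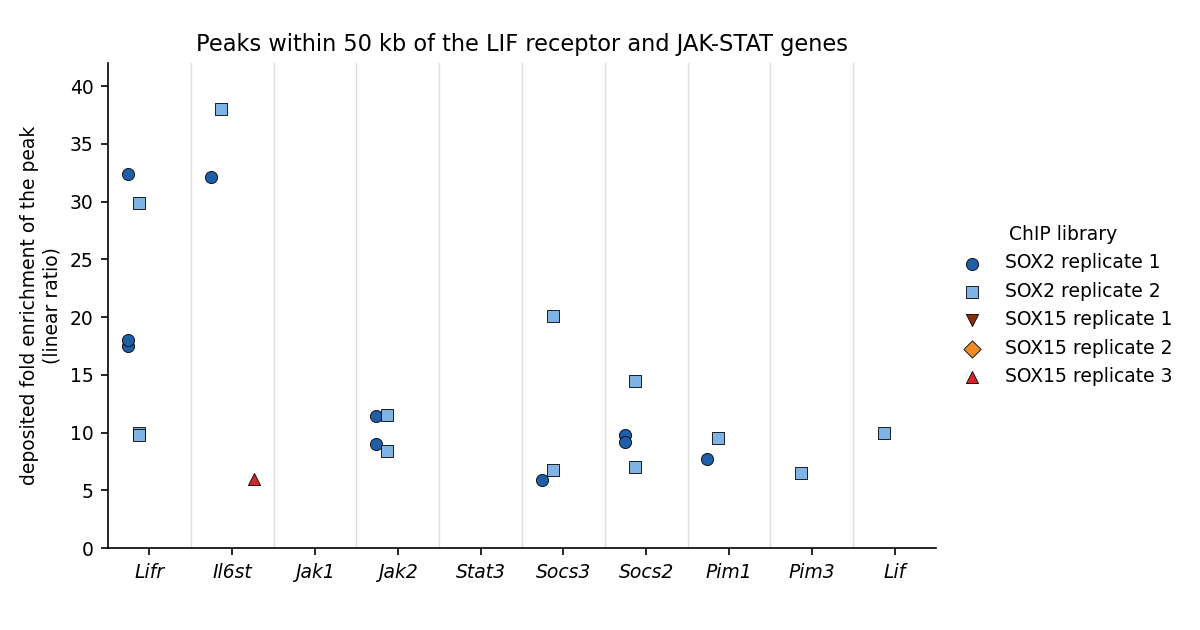
Deposited fold enrichment (linear ratio) of each peak within 50 kb of the 10 genes, by gene and ChIP library; each point is 1 peak, and an empty column means no peak. Il6st and Lifr hold the peaks above 25 in both SOX2 libraries, Jak1 and Stat3 are empty, and the single SOX15 point is replicate 3 at Il6st; SOX15 replicates 1 and 2 have no point.

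The kinase genes differed. Jak2 (chromosome 19, 29251803 to 29313095, forward strand) had a SOX2 region inside its body, 34 kb after its start, where the fold was 11.4 in replicate 1 and 11.5 in replicate 2. Both values sit at a percentile of 74.2, so this was the region with the closest ranks among the 10. A further region, 38.1 kb past the end of Jak2 (chromosome 19, 29350997 to 29351379), had 9.03 and 8.44, at percentiles of 57.7 and 51.3. It lies inside Plgrkt, a plasminogen receptor gene, and is given to Jak2 by the window alone. Jak1 (chromosome 4, 101151974 to 101265282, reverse strand) is the longest of the 10 genes at 113 kb, and the nearest SOX2 summit was 624 kb away, in replicate 2.

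Stat3 (chromosome 11, 100886806 to 100939594, reverse strand), the transcription factor on which the pathway converges, had no SOX2 summit within 270 kb. The nearest SOX15 summit was 564 kb away. Peaks were thus near the receptor chains, 1 of the kinases and downstream genes, and not near Stat3 in these lists.

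The feedback inhibitor Socs3 (chromosome 11, 117966079 to 117970336, reverse strand) had the region that differed most between the SOX2 libraries. At chromosome 11, 117975378 to 117975857, the fold was 5.87 in replicate 1 and 20.1 in replicate 2. These are percentiles of 13.1 and 92.9, so the peak is near the bottom of one list and near the top of the other. Of the 2360 SOX2 regions 0.72% had a difference at least as large, where the median difference was 17.3 points. Ranked by −log10 q the values lay closer, at 39.6 and 92.6. The summits, 33 bp apart, were 5.31 and 5.28 kb before the gene body in its direction of transcription. Replicate 2 had a second peak 24.1 kb past the other end, with a fold of 6.73 and a percentile of 28.5.

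Socs2 (chromosome 10, 95383903 to 95417321), another inhibitor of cytokine receptors, had a pair of SOX2 regions in both libraries near the far edge of its window. The first, 39.0 kb from the body, had a fold of 9.78 in replicate 1 and 14.5 in replicate 2, at percentiles of 63.9 and 83.9. The second, 44.1 kb from the body, had 9.16 and 7.01, at 58.4 and 33.3. The order of the pair was the same in both libraries, and the summits were 5.17 and 5.13 kb apart. The nearest protein-coding gene was Mrpl42, a gene of the mitochondrial ribosome, at 24.5 and 19.4 kb, so Socs2 loses its call when a peak is given to the nearest gene alone or within 10 kb.

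Pim1 (chromosome 17, 29490785 to 29496111, forward strand) had a SOX2 region inside its body, 3.75 kb after the first base of the gene and 1.45 kb after a second start in the table. The fold was 7.74 in replicate 1 and 9.51 in replicate 2, at percentiles of 41.7 and 61.7. It is narrow, at 294 bp, and its summits differed by 5 bp, the smallest distance of the 10 regions. Pim3 (chromosome 15, 88862194 to 88865726, forward strand) had 1 peak, in replicate 2, 40.8 kb past its end and inside Ttll8, with a fold of 6.46 and a percentile of 24.4. Of the 3 kinase or inhibitor genes with bodies under 6 kb, Socs3 and Pim1 thus had a SOX2 region within 10 kb and Pim3 did not.

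**Figure D3:**
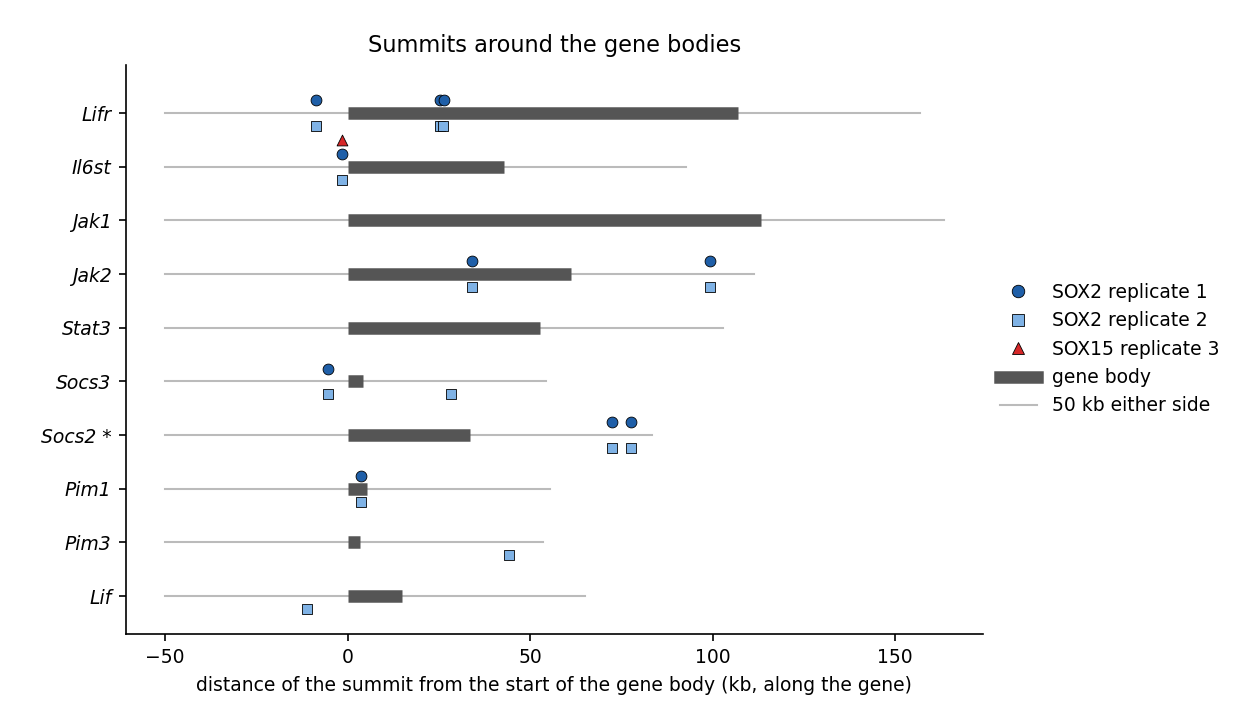
Position of each summit along the gene, in kb from the start of the gene body, which is drawn as a dark bar with 50 kb either side as a thin line. Circles and squares are SOX2 replicates 1 and 2 and the triangle is SOX15 replicate 3; the asterisk marks Socs2, drawn in the direction of the chromosome because its strand was not used here. Each of the 10 summits of replicate 1 has one of replicate 2 below it.

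By the strongest SOX2 peak Il6st and Lifr ranked highest of the 6 genes. The mean percentile over the libraries was 99.1 for Il6st and 98.5 for Lifr, then 74.2 for Jak2, 73.9 for Socs2, 53.0 for Socs3 and 51.7 for Pim1. Il6st and Lifr exchanged order between the libraries (98.8 against 98.9, and 99.4 against 98), so they do not differ beyond their spread. Both stood above each of the other 4 genes in each library, although Socs3 reached 92.9 in replicate 2. Jak2 lay within the range of Socs2 (63.9 to 83.9), and Pim1 within that of Socs3 (13.1 to 92.9), so neither pair can be ordered. Over the 10 regions the median of the mean percentile was 74.1, against 59.7 over the 2360 regions of the genome.

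**Figure D4:**
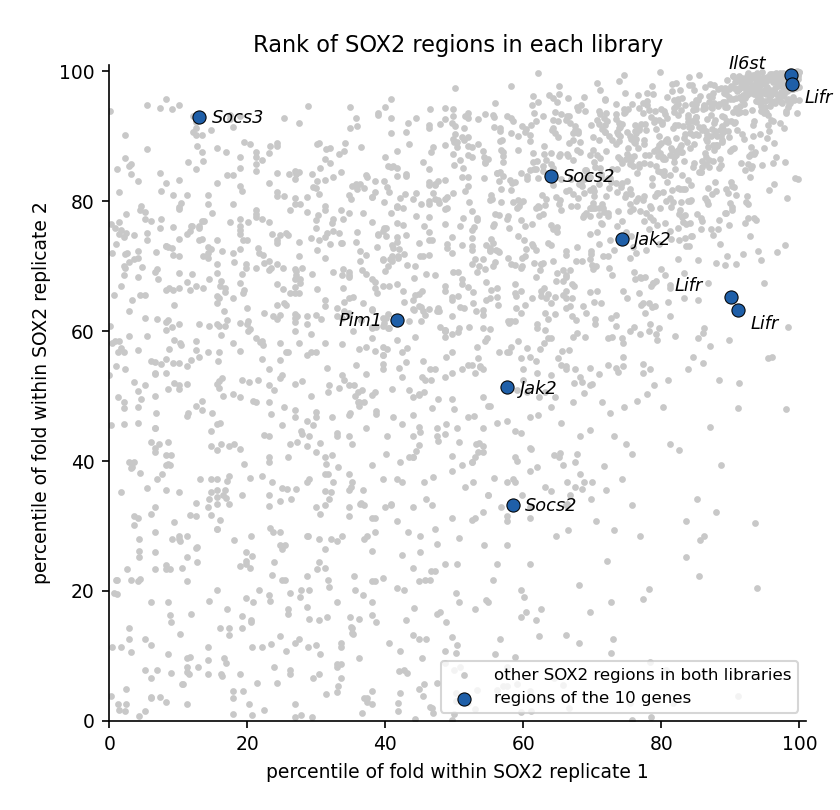
Percentile of fold in SOX2 replicate 1 (x axis) and replicate 2 (y axis) for the 2360 SOX2 regions with 1 peak in each library; blue points are the 10 regions near the LIF receptor and JAK-STAT genes. Il6st and the upstream region of Lifr lie in the top right corner, the pair inside Lifr is higher in replicate 1, and Socs3 is high in replicate 2 alone.

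Of the 10 regions 4 had a summit inside the body of one of the 10 genes (2 in Lifr, 1 in Jak2 and 1 in Pim1), and 1 more lay inside Plgrkt. Of all SOX2 regions in both libraries 45.2% had a summit inside a protein-coding gene. The median width of the 10 regions was 489.5 bp, against 408 bp over the genome. None of the 11 promoter windows of the table that belong to the 10 genes (250 bases before to 50 after a start) overlapped a peak of any library. Socs2 has no start in that table, so its promoter was not covered. Of all 32851 windows 0.198% overlapped a SOX2 region, so none of 11 is a share near that background. The share of all windows with a peak of any library, SOX15 included, is not given here. The rule's limit of 50 kb fell in a gap. The farthest summits inside it were those of Socs2 at 44.1 kb (folds 9.16 and 7.01), and the nearest outside were 66.4 kb from Jak2 (fold 6.01, replicate 2) and 85.1 kb from Pim1 (fold 6.26, replicate 2).

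Letters of known motifs were searched in the 250 bases before each start, on both strands, as a description of these promoters. Socs2, without a start, was not searched. The SOX motif (ACAAAG or ACAATG) was found in 3 of the 11 promoters (1 of Lifr, and those of Stat3 and Socs3), and in 25.2% of all promoters. The STAT motif (TTCNNNGAA) was found in Socs3 alone, and in 7.02% of all promoters. The stricter form TTCCNGGAA, which the first includes, was in none of the 11 and in 0.913% of all. The OCT motif (ATGNAAAT) was in that of Pim3, and in 5.03% of all. The KLF motif (GGGCGTG or GGGTGTG) was in 4 (Jak1, Jak2, Lif and Pim3), and in 13.8% of all. No peak lay on any of these promoters, and the counts are a description of the letters alone.

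The sites of the SOX, STAT and OCT letters are shown with 10 bases either side, in the direction of the gene, because they place the searched letters against genes with and without a SOX2 region. Capitals mark the match, which may be the reverse complement of the motif as written above. The first base of the match lay 215 bases before the second start of Lifr (chr15:7140317-7140342), 158 before the start of Stat3 (chr11:100939683-100939708), 24 and 154 before that of Socs3 (chr11:117969375-117969400 and chr11:117969502-117969530) and 79 before that of Pim3 (chr15:88862105-88862132).
Lifr, SOX letters: cataaccagaCATTGTactggctagt
Stat3, SOX letters: agggaggagcACAAAGctctcagaac
Socs3, SOX letters: tcgcgccgcgCTTTGTctccctctcg
Socs3, STAT letters: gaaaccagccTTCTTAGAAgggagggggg
Pim3, OCT letters: caaaacctcgATTTTCATtggcttatgc
Of the genes with SOX letters in this stretch, Lifr and Socs3 had a SOX2 region in both libraries, and Stat3 had no SOX2 peak within 50 kb. Of those without, Il6st, Jak2 and Pim1 had such a region, and Jak1, Pim3 and Lif did not. Socs2 had such regions but no promoter to search, so it is in neither group. No peak lay on these promoters, so the letters are not read against SOX2 binding. The sequences under the peaks themselves were not analysed here.

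Other genes of the pathway were described from a list of 43 cytokines, receptors, kinases, STAT proteins, inhibitors and targets. Of these, 12 had a SOX2 peak in both libraries within 50 kb (background 14.1%), and 5 had a SOX15 peak in at least 2 libraries (background 2.26%). None of these called genes shared a peak with the 10. Folds below are those of the strongest peak within 50 kb in each library, and the values of a gene may belong to different regions. When each peak was given to its nearest gene alone, 7 of the 12 kept the SOX2 call (background 7.30%), and Cntf, Socs4, Ptpn6, Gbx2 and Pim2 did not, so the values below for these 5 belong to peaks nearer another gene. Among receptors and cytokines, Il6ra, the gene of the interleukin-6 receptor chain that pairs with gp130, had folds of 11 and 23.8 in SOX2 replicates 1 and 2, and Cntf, a related cytokine, had 8.4 and 9.83. Among signal proteins and inhibitors, SOX2 folds were 5.04 and 4.06 near the adaptor gene Gab1, 6.95 and 6.36 near Socs4, and 21.5 and 15.1 near the phosphatase gene Ptpn6. No other member of the JAK or STAT families had a SOX2 peak in both libraries.

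Genes that respond to STAT3 or act with it in stem cells made up most of the rest. SOX2 folds in replicates 1 and 2 were 16.2 and 22.3 near Klf4, 10.4 and 12.3 near Klf5, and 21.9 and 21.2 near Tfcp2l1, which encode pluripotency factors. Near the proto-oncogene Myc they were 16.6 and 20.5, and near Gbx2, a homeobox gene, 6.38 and 14.8. They were 7.88 and 5.97 near the survival gene Mcl1, and 10.8 and 15.8 near Pim2, another gene of the Pim family. By percentile none of these strongest peaks was above those of Il6st and Lifr in either library.

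The SOX15 calls described from the list mostly lay at other genes. Folds in SOX15 replicates 1, 2 and 3 were 13.6, 31.9 and 28.2 near Ptpn6, at a region 2.38 to 2.45 kb outside the gene whose summits were 0.075 and 0.069 kb from the snRNA gene Rnu7 in replicates 1 and 3. The regions near Il11 (5.83 and 4.88 in replicates 1 and 2) and Pias4 (6.61 and 10.5 in replicates 1 and 3) lay inside Cox6b2 and at Dapk3. The exception was Tfcp2l1, with 6.90 and 10.4 in replicates 2 and 3. These peaks crossed an end of its gene body, with the summits just inside. At Ptpn6, Il11 and Pias4 each of these summits was over 2 kb from the gene to which the window assigned it.

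Il6st had the highest mean percentile, so the genes most like it were sought among the 227 others with the same calls (both SOX2 libraries and SOX15 replicate 3 alone), by the distance between the percentiles of the strongest SOX2 peaks over those 2 libraries. Psrc1, Celsr2, Sars and Elapor1 came first, each 0.314 percentile points away, and they are neighbours that share 1 SOX2 peak, with folds of 32.2 and 44.9. Olfr761 followed at 0.439 points, with 29.9 and 45.2. The SOX15 replicate 3 folds of these genes were 5.86 to 6.73, beside 5.96 at Il6st and a median of 6.41 over that whole list. Likeness in 2 libraries describes rank alone.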

How the data were processed

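The deposited lists hold peaks called sample by sample. Bowtie2, MACS2, deepTools and mm10 appear without versions among the submitters' processing notes. The authors' columns, per the narrowPeak layout of the deposited files, are the fold enrichment as a linear ratio, −log10 values of p and of q for the peak, a score that equals the last times 10, rounded down, and the summit's offset. The control used in calling and any filter are not given in the sources used here. Gene bodies were those of RefSeq on GRCm38.p6 (20 chromosomes with peaks), and starts and sequences from its promoter table, which matched 9 of the 10 genes. Peaks of 1 factor that overlapped by at least 1 bp formed a region. A gene was called when 1 region held assigned peaks of both SOX2, or of at least 2 SOX15, libraries. The assignment was checked on planted peaks. The 10 genes, the pathway list and the rules were chosen with earlier results of these data known. Named beyond the 10 genes were the called pathway genes, the 5 genes most like the one with the highest rank, and the genes nearest to described peaks. The alternatives were windows of 10 and 100 kb, the nearest gene alone, −log10 q of at least 3, fold of at least 5, summits within 200 bp, ranks by −log10 q, and each library left out. Python 3.11.15, numpy 2.4.6 and pandas 2.3.3 were used. No depth can be had from these files, so no interval on single values is given. The values of 1 called pathway gene are not reported here.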

Additional observations from a re-analysis of the deposited data

How the results depend on the processing

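The count of 6 genes with SOX2 in both libraries ran from 5 to 8 over the alternatives. It was 5 within 10 kb and with the nearest gene alone, where Socs2 dropped out, and 6 to 8 with either SOX2 library left out, where 1 library makes the call. Genes with a peak in at least 1 SOX2 library fell from 8 to 5 within 10 kb and to 5 with the nearest gene alone, and were 6 to 8 with 1 SOX2 library left out. The share of all protein-coding genes called for SOX2 moved from 14.1% to 6.72% within 10 kb, 22.3% within 100 kb and 7.30% with the nearest gene alone, and was 15.5% to 24.9% with 1 SOX2 library left out. The other pathway genes called for SOX2 fell from 12 to 7 with the nearest gene alone. SOX15 in at least 2 libraries stayed at 0 of the 10 genes in each alternative, and SOX15 in at least 1 library went from 1 to 0 without SOX15 replicate 3 (0 to 1 over the libraries left out). Because the genes were chosen with earlier results of these data known, the exact permutation p-values that follow do not test the list of genes. The difference in list share stayed positive, 0.127 to 0.322 points, with exact p from 0.2 to 0.3 for the alternatives with all 5 libraries. It was 0.194 to 0.322 when a library was left out, where the exact p of 0.25 (without a SOX2 library) and 0.333 (without a SOX15 library) are the smallest these designs allow and say nothing on stability. With a replicate block over the same-numbered libraries 1 and 2 it was 0.322, a value with no test, since 2 pairs allow no p below 0.5; nothing in the labels says that the numbers pair libraries. Ranked by −log10 q, the median percentile of the strongest peaks was 72.3 in place of 74.1. The planned narrower window for motifs around summits was not run. Depth is unknown, so a missing peak shows no absence of binding.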
